A study of Mus musculus with 6 samples.

Results

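Cd72, its ligand Sema4d, the phosphatase Ptpn6 and the sialic acid-binding lectins (Siglecs) Siglec1, Cd22, Cd33, Siglece, Siglecg and Siglech were examined in hearts injected with miR-19a/19b mimics after myocardial infarction (MI). These 9 genes were taken by symbol from the 26012 genes of the deposited expression table. All 9 were listed, and all 9 had a mean normalized count of at least 1 over the 6 hearts, as did 21126 genes in all. The genes were picked with earlier results of the same hearts known, so their own differences are given as a description. They were chosen by symbol and by their mean normalized count over the 6 hearts, the only measured value in the rule, of which the lowest was 17.5 for Siglech and the next 46.3 for Siglecg, and no gene was near or under the minimum.

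RNA was measured in ventricular tissue of 6 male C57BL/6 mice, all given MI at 8 weeks of age by tying off the left anterior descending artery of the heart. Each heart received 10 μg of mimic by injection into the heart at surgery, 3 hearts a control mimic and 3 hearts miR-19a/19b mimic, and all were taken 4 days after MI. Mimics are synthetic RNAs that act as the mature miRNA. They were injected into the ventricular wall at 3 sites around the infarct and were not limited to 1 cell type. No uninjured or uninjected heart was included.

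Cd72 is a receptor of B cells and some myeloid cells that carries an immunoreceptor tyrosine-based inhibitory motif (ITIM) in its cytoplasmic tail. When an ITIM is phosphorylated it recruits phosphatases, above all Ptpn6 (SHP-1), which dampen signals from activating receptors such as the B cell receptor. Binding of Sema4d (CD100), a semaphorin of T cells and other leukocytes, keeps Ptpn6 away from Cd72 and so lifts the brake. Siglecs read sialic acids on glycans, and most of them signal through ITIMs. Cd22 and Siglecg do so in B cells, and Siglece in neutrophils, monocytes and macrophages. The name inhibitory receptor does not cover all of the genes: Siglec1 (sialoadhesin, CD169) is an adhesion receptor of macrophages whose tail has no ITIM, mouse Cd33 of myeloid cells lacks the canonical ITIM of its human counterpart, Siglech of plasmacytoid dendritic cells signals through the activating adaptor Tyrobp (DAP12), Sema4d is a ligand and Ptpn6 an enzyme.

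The 2 injected miRNAs share a seed, bases 2 to 8, which pairs with target mRNAs and is written in capitals in the mature sequences below (RefSeq, GRCm38.p6). They are shown because any direct match in the 9 genes would be read by both.
mmu-miR-19a-3p: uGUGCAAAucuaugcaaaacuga
mmu-miR-19b-3p: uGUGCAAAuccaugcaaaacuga
Both are 23 bases long and differ at 1 position, number 11 from the 5′ end, outside the seed. miR-19a-3p lies at chr14:115044048-115044070 on the plus strand. miR-19b-3p is encoded at chr14:115044358-115044380 on the plus strand and again at chrX:52741991-52742013 on the minus strand.

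Of the 9 genes, 1 held a match to this seed in its longest annotated 3′ UTR (GENCODE M21, GRCm38). The search ran on the transcript strand only, for TTTGCACA, which pairs with the whole seed and has an A after it, and for the shorter TTTGCAC and TTGCACA, both contained in it. Cd72 held 1 copy of TTTGCAC, from position 306 of a UTR of 1580 bases, shown in capitals with 8 bases on either side as read on the minus strand at chr4:43447722-43447744.
Cd72: ttaaatacTTTGCACgtgttagt
The match was in 4 of the 5 coding transcripts of Cd72 that have a 3′ UTR, and 3 of these ended within 10 bases of it. The stretch also lies in an exon of Tesk1, a kinase gene on the opposite strand. None of the 3 motifs was found in the longest 3′ UTR of Sema4d (1363 bases), Ptpn6 (401), Siglec1 (632), Cd22 (2812), Cd33 (4646), Siglece (416), Siglecg (281) or Siglech (1948). Among the 15866 tested genes with a 3′ UTR, 19.3% held at least 1 of the motifs. The median log2 fold change was -0.03 for genes with a match and 0.0077 for the 12796 without.

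Cd72 was lower in all 3 hearts injected with miR-19a/19b mimic than in any control heart. The 3 control hearts had 1359, 1084 and 1103 normalized counts of Cd72, and the 3 miR-19a/19b hearts 561, 663 and 673 (a normalized count is the reads on a gene divided by a size factor of the library). The lowest control heart was therefore well above the highest miR-19a/19b heart. The means were 1182 ± 154 in control and 632 ± 62.3 in miR-19a/19b hearts (SD, n = 3 each), 46.5% lower. On the log2(normalized count + 1) scale the fold change was -0.90 (SE 0.13, 95% confidence interval -1.19 to -0.61), with an unadjusted limma p of 6.03e-05, the second lowest of all 21126 genes. The limma p adjusted over all genes by the Benjamini-Hochberg method was 0.396, so Cd72 did not pass the threshold of 0.05. On the recovered reads it did pass in DESeq2 (adjusted p 4.23e-05) and in edgeR's exact test (adjusted p 1.86e-05). It did not pass in edgeR's quasi-likelihood test (adjusted p 0.384) or in limma-voom (adjusted p 0.399). On simulated reads DESeq2 and edgeR's exact test made 34 and 39 false calls, against 15 for edgeR's quasi-likelihood test and 13 for limma-voom. At the same adjusted threshold DESeq2 called 0.137% of genes and edgeR's exact test 0.142%. A fitted fold change at least as far below 0 was found for 2.43% of tested genes. In whole tissue, fewer cells of a type and less RNA per cell cannot be told apart.

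Cd72 (ENSMUSG00000028459) lies at chr4:43446462-43454628 on the minus strand. Its exons shared 1423 bases, or 41.6% of their length, with exons of Tesk1 on the other strand, and no source used here says whether reads were counted by strand, so some reads on Cd72 may stem from Tesk1. Tesk1 itself had 696, 793 and 750 normalized counts in control hearts and 773, 724 and 700 in miR-19a/19b hearts. Its log2 fold change was -0.03 (SE 0.10, limma adjusted p 0.9996), and its groups overlapped.

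Siglec1 was the other of the 9 genes whose groups did not overlap, making 2 of 9 where 9.2% of tested genes had no overlap in either direction. Control hearts had 2246, 2543 and 2729 normalized counts and miR-19a/19b hearts 1290, 1574 and 1876. Each miR-19a/19b heart was at 51.5% to 74.9% of the control mean, a wider span than the 47.4% to 57.0% of Cd72. The means were 2506 ± 244 and 1580 ± 293 (SD, n = 3 each), 36.9% lower. The log2 fold change was -0.68 (SE 0.15, interval -1.01 to -0.34) with an unadjusted limma p of 0.00136, number 34 from the lowest, and an adjusted p of 0.791. With all 6 hearts no tool called Siglec1: its adjusted p ran from 0.0624 in DESeq2 to 0.884 in limma with a smaller pseudocount. Siglec1 (ENSMUSG00000027322) spans chr2:131069220-131086765 on the minus strand.

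**Figure D1:**
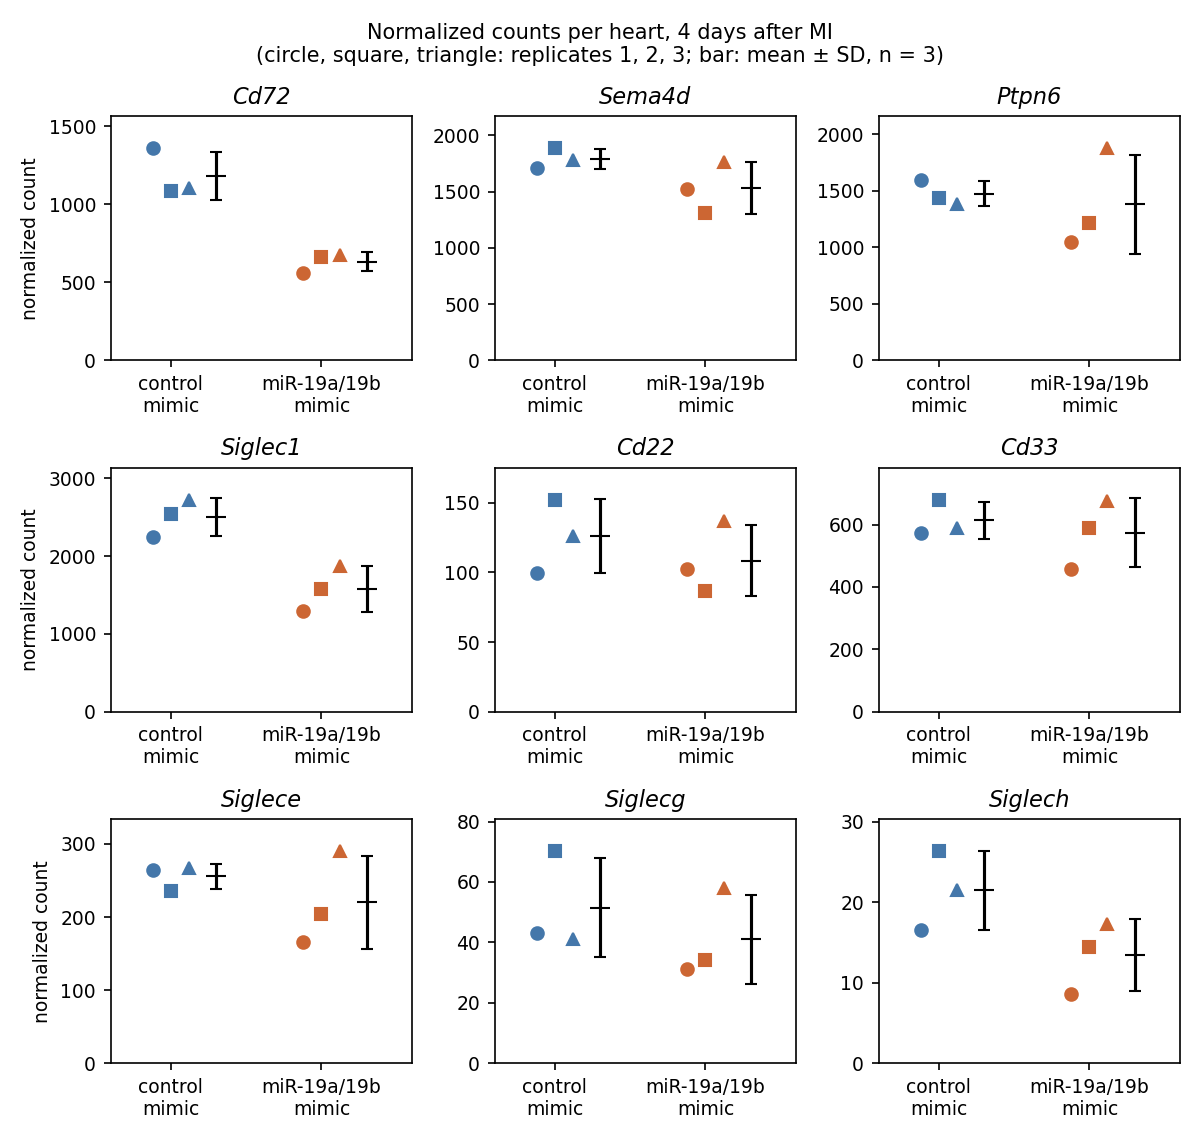
Normalized count of each of the 9 genes in each heart, 1 panel a gene, with points for hearts (control mimic and miR-19a/19b mimic, 3 each), bars at group means and error bars of 1 SD; each count axis starts at 0. The points of Cd72 and Siglec1 do not overlap between groups, while those of the other 7 genes do, and miR-19a/19b replicate 3 is the highest of its group in every panel.

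For the other 7 genes at least 1 miR-19a/19b heart was inside or above the control range. All 9 genes had a fitted fold change below 0, where 49.2% of tested genes did, and their median log2 fold change was -0.25 against 0.00 for all genes tested. Both genes without overlap, Cd72 and Siglec1, were lower after miR-19a/19b mimic, and 5.3% of tested genes were lower without overlap. These were also the 2 genes of the 9 with an unadjusted limma p under 0.05, where 4.01% of tested genes had one in either direction and 2.63% were lower with one. None of the 9 genes, and 0% of all genes, had a limma adjusted p under 0.05. The 9 genes vary together over the same 6 libraries: all 36 pairs had a Pearson r above 0 on the log2 scale, from 0.27 for Cd72 with Cd22 to 0.93 for Ptpn6 with Siglece, with a median of 0.66. These pairs share libraries and cell content and are not independent.

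**Figure D2:**
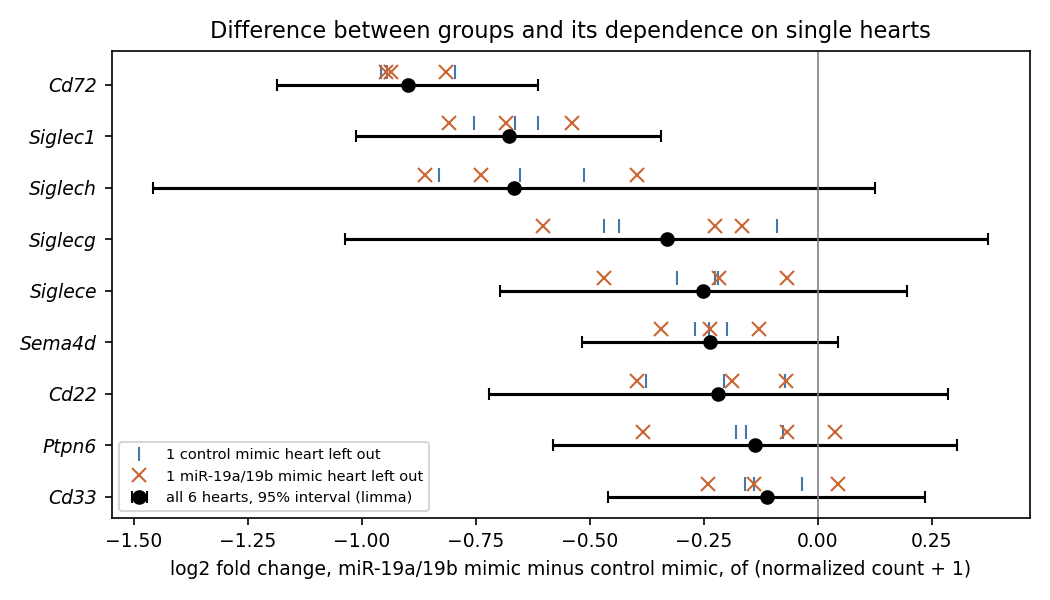
Log2 fold change of the 9 genes, miR-19a/19b against control mimic, with 95% confidence intervals from limma; the vertical line marks no difference. Cd72 (-0.90) and Siglec1 (-0.68) have intervals below 0, and the intervals of the other 7 genes cross 0.

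Sema4d, the ligand of Cd72, differed less than Cd72. It had 1710, 1885 and 1783 normalized counts in control hearts and 1520, 1310 and 1766 in miR-19a/19b hearts. The first and second miR-19a/19b hearts were below every control heart, and the third lay within the control range. The means were 1793 ± 88.3 and 1532 ± 228 (SD, n = 3 each), and the log2 fold change was -0.24 (SE 0.12, interval -0.52 to 0.04, limma unadjusted p 0.0897, adjusted p 0.9996). It ran from -0.34 without miR-19a/19b replicate 3 to -0.13 without replicate 2. The gene (ENSMUSG00000021451, chr13:51701246-51793747, minus strand) encodes a membrane protein that can be shed.

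Sema4d also binds plexins. Plxnb1, its high-affinity receptor, had 657 ± 38.01 normalized counts in control and 682 ± 21.3 in miR-19a/19b hearts, a log2 fold change of 0.05. Plxnb2, the most abundant gene of this list, had 10021 ± 555 and 9348 ± 815 (log2 fold change -0.10, SE 0.13), and Sema4c, another class 4 semaphorin, 835 and 851. This list holds receptors of Sema4d, the receptor kinases Met and Erbb2, and the genes of other class 4 semaphorins. Of its 9 tested genes, 3 had a lower and 6 a higher fitted value, with a median log2 fold change of 0.05. Of these, 0 had an unadjusted limma p under 0.05.

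Ptpn6, the phosphatase recruited by ITIMs, had the largest SD between miR-19a/19b hearts of the 9 genes, in normalized counts. Control hearts had 1598, 1432 and 1386 normalized counts and miR-19a/19b hearts 1048, 1211 and 1876. The first and second miR-19a/19b hearts lay below all controls, and the third above all of them. The means were 1472 ± 112 and 1378 ± 438 (SD, n = 3 each), and the log2 fold change was -0.14 (SE 0.20, interval -0.58 to 0.30, limma unadjusted p 0.498). The log2 fold change turned to 0.037 without miR-19a/19b replicate 1 and was -0.38 without miR-19a/19b replicate 3. Ptpn6 (ENSMUSG00000004266, chr6:124720707-124738714, minus strand) shares 195 exonic bases with the antisense gene Gm20531, whose mean was 1.26 normalized counts.

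The other enzymes of ITIM signalling also differed little. All 13 tested phosphatases and kinases of this list had a lower fitted value, with a median log2 fold change of -0.15, and 0 of them had an unadjusted limma p under 0.05. Ptpn11 (SHP-2), the related phosphatase, had 7346 ± 776 and 7271 ± 1791 normalized counts, and Syk, the kinase of ITAM signalling, 3325 ± 90.6 and 3122 ± 343. Of 3 ITAM adaptors all had lower fitted values (median -0.14), among them Tyrobp, 3040 ± 520 against 2910 ± 722, and Fcer1g, 2882 ± 614 against 2641 ± 715. Of 12 genes of the B cell receptor and its adaptors, 8 had a lower and 4 a higher fitted value, with a median of -0.20. In that list Pik3ap1 (BCAP), an adaptor that links receptors to PI3-kinase, had 1234 ± 74.8 and 871 ± 255 (log2 fold change -0.54, SE 0.18, limma unadjusted p 0.0156, adjusted p 0.9996) without overlap. The 2 most abundant genes of that list were Grb2, at 2925 ± 140 and 2968 ± 168, and Pik3cd, at 1618 ± 125 and 1453 ± 446.

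Other receptors, most of them with ITIMs, gave a setting for Cd72. Of 15 such receptors of myeloid cells and lymphocytes, 11 had a lower and 4 a higher fitted value, with a median log2 fold change of -0.18, and 2 had an unadjusted limma p under 0.05. These were Lair1, a collagen receptor, with 925 ± 37.7 and 712 ± 168 normalized counts (log2 fold change -0.40, SE 0.16, p 0.0320), and Clec12a, a receptor of myeloid cells, with 902 ± 174 and 665 ± 148 (-0.44, SE 0.18, p 0.0394), both with a limma adjusted p of 0.9996. Lair1 did not overlap between groups and Clec12a did. The 2 most abundant receptors of the list, Pecam1 of endothelium and leukocytes and Sirpa of macrophages, had log2 fold changes of 0.015 and -0.05.

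**Figure D3:**
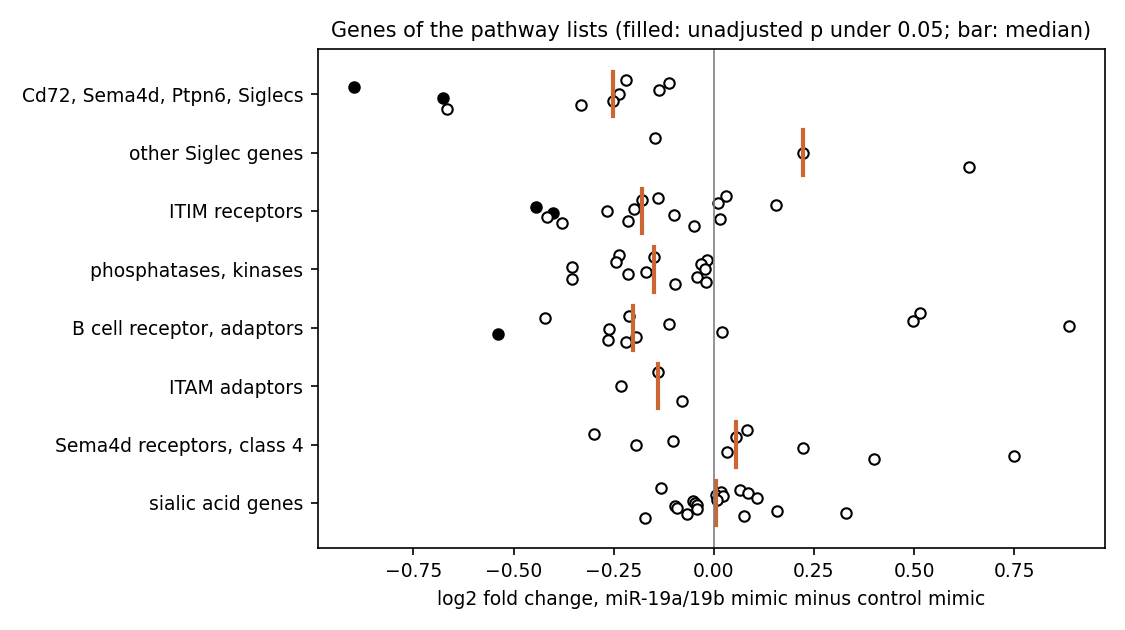
Log2 fold change of the 9 genes (top row) and of every tested gene in the 7 lists of related genes, 1 row a list. Points are genes, a bar marks the median of each row, and the vertical line marks no difference. The medians of the 7 lists lie between -0.20 (B cell receptor and adaptor genes) and 0.22 (other Siglec family genes, 3 genes), and that of the 9 genes is -0.25.

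The myeloid Siglecs Cd33 and Siglece overlapped between groups. Cd33 had 573, 680 and 588 normalized counts in control hearts and 456, 588 and 676 in miR-19a/19b hearts, so that 1 of these was below, and 2 were within, the control range. Its log2 fold change was -0.11 (SE 0.15, interval -0.46 to 0.24, limma unadjusted p 0.484). It turned to 0.043 without miR-19a/19b replicate 1 and was -0.24 without replicate 3. Siglece had 264, 235 and 267 in control hearts and 166, 204 and 290.4 in miR-19a/19b hearts, with 2 below and 1 above all controls. Its log2 fold change was -0.25 (SE 0.20, interval -0.70 to 0.20, p 0.235), and ran from -0.47 without miR-19a/19b replicate 3 (limma unadjusted p 0.00676) to -0.07 without miR-19a/19b replicate 1. Cd33 (ENSMUSG00000004609, chr7:43524216-43544428) and Siglece (ENSMUSG00000030474, chr7:43651070-43660161) are both on the minus strand of chromosome 7.

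The B cell Siglecs were less abundant. Cd22 had 99.5, 152 and 126 normalized counts in control hearts and 102, 86.6 and 137 in miR-19a/19b hearts, with a log2 fold change of -0.22 (SE 0.22, interval -0.72 to 0.28, limma unadjusted p 0.351). Siglecg had 43.1, 70.3 and 41.1 in control and 31.2, 34.0 and 57.9 in miR-19a/19b hearts, with a log2 fold change of -0.33 (SE 0.31, interval -1.04 to 0.37, p 0.314). With 1 heart left out these values ran from -0.40 without miR-19a/19b replicate 3 to -0.07 without miR-19a/19b replicate 2 or control replicate 2 for Cd22, and from -0.60 without miR-19a/19b replicate 3 to -0.09 without control replicate 2 for Siglecg. For both genes the groups overlapped, and the intervals include no difference as well as a fall of the size seen for Siglec1. Cd22 (ENSMUSG00000030577, chr7:30865402-30880342, minus strand) overlaps the antisense gene Gm29439 over 9.50% of its exons. Siglecg (ENSMUSG00000030468, chr7:43408204-43418358, plus strand) is 98.4% identical to Gm29791 over 382 bases, so its reads may be split with that copy.

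Siglech was the least abundant, with 16.6, 26.3 and 21.5 normalized counts in control hearts and 8.61, 14.4 and 17.3 in miR-19a/19b hearts. The third miR-19a/19b heart lay within the control range. The log2 fold change, -0.67, was close to that of Siglec1 (-0.68), with a wider error (SE 0.35, interval -1.46 to 0.13, limma unadjusted p 0.0896), and was -0.40 without miR-19a/19b replicate 1. It rested on 8 to 27 reads per heart, too few to tell a difference of this size from none. Siglech (ENSMUSG00000051504) lies at chr7:55768178-55778925 on the plus strand. The 3 other Siglec family genes tested included Siglecf, an eosinophil receptor, with 36.9 ± 8.03 and 70.4 ± 56.7 normalized counts, and Mag, a myelin protein, with 29.4 ± 7.35 and 27.2 ± 9.76, neither with an unadjusted limma p under 0.05.

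Levels were compared between genes per kilobase of exon, using the lengths in the table. The length of Cd72 includes the exon stretch shared with Tesk1, so the level and place of Cd72 in this order are uncertain. In control hearts Ptpn6 was highest, with 525 ± 39.8 normalized counts per kilobase, followed by Siglec1 with 351 ± 34.1, Cd72 with 346 ± 44.9, Sema4d with 278 ± 13.7, Siglece with 138 ± 9.55, Cd33 with 78.9 ± 7.504, Cd22 with 25.3 ± 5.29, Siglecg with 10.7 ± 3.39 and Siglech with 6.35 ± 1.44 (SD, n = 3). Siglec1 and Cd72 overlapped in control hearts, and no other neighbours in this order did. In miR-19a/19b hearts Sema4d, at 238 ± 35.4, stood above Siglec1, at 221 ± 41.0, and Cd72, at 185 ± 18.2. Set against B cell genes on the same scale, Cd72 in control hearts was above Ighm (194), Cd79b (43.2) and Cd79a (26.8), given as a description. Of the macrophage genes, Csf1r (1315), Adgre1 (1189) and Mertk (354) were among those above Cd72, while Cx3cr1 (236), Lyve1 (169.5), Cd163 (148) and Timd4 (5.004) were below it.

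**Figure D4:**
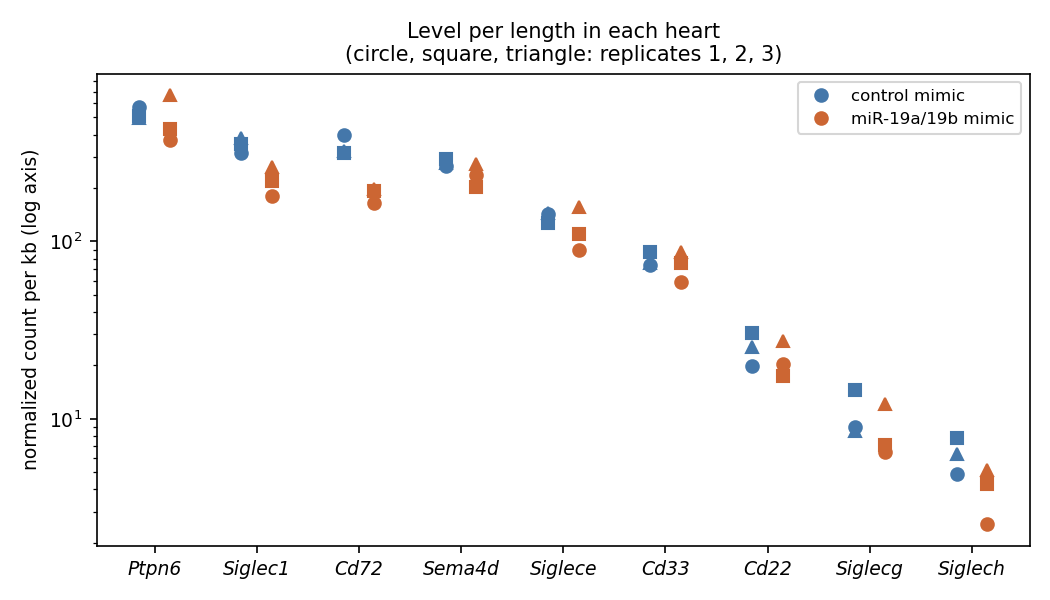
Normalized counts per kilobase of exon on a log axis for the 9 genes, with a point for each heart, control mimic and miR-19a/19b mimic side by side, ordered by the control mean. Ptpn6 is at the top in both groups, and Cd72 and Siglec1 are close together.

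Markers of leukocytes were set beside these genes. The 7 pan-leukocyte genes all had a lower fitted value after miR-19a/19b mimic, with a median log2 fold change of -0.22 and none with an unadjusted limma p under 0.05. Their summed normalized count was 18386 to 22130 in control and 14087 to 22096 in miR-19a/19b hearts. Relative to the mean log2 level of this list in the same heart, Cd72 was at -0.63, -1.20 and -0.89 in control hearts and at -1.45, -1.46 and -1.88 in miR-19a/19b hearts. This is a difference of -0.69 without overlap, against -0.90 before scaling. Siglec1 was at 0.09, 0.03 and 0.41 in control and -0.25, -0.21 and -0.40 in miR-19a/19b hearts, a difference of -0.47 without overlap. The differences of Sema4d (-0.03), Ptpn6 (0.07), Cd22 (-0.01), Cd33 (0.10), Siglece (-0.04) and Siglecg (-0.12) were near 0 on this scale, and all overlapped. Siglech kept a difference of -0.46, with overlap.

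**Figure D5:**
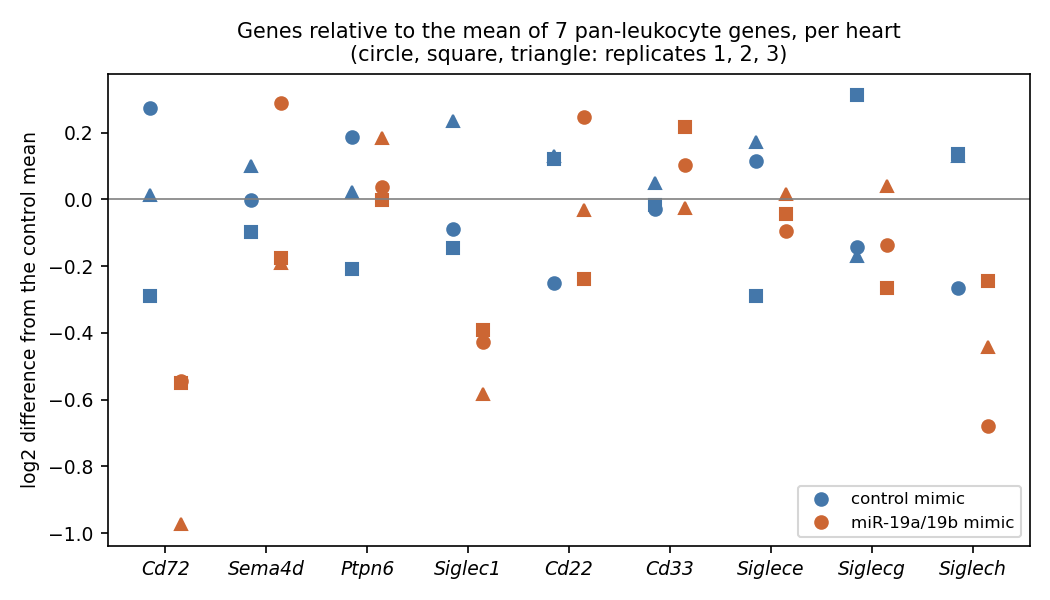
Log2 level of each of the 9 genes relative to the mean of the 7 pan-leukocyte genes in the same heart, with a point for each heart. Values are shown as differences from each gene's control mean, which the horizontal line marks. Cd72 and Siglec1 are separate between the groups, with differences of -0.69 and -0.47, and the other 7 genes overlap.

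The B cell list gave a similar value for Cd72. Of 9 B cell genes, 7 had a lower and 2 a higher fitted value (median log2 fold change -0.24, none with an unadjusted limma p under 0.05), and their sum was 693 to 745 in control and 576 to 685 in miR-19a/19b hearts. Relative to them Cd72 was at 4.92, 4.55 and 4.75 in control and 4.02, 4.25 and 3.69 in miR-19a/19b hearts, a difference of -0.75 without overlap. Cd22 and Siglecg differed by -0.07 and -0.18 relative to the same list, with overlap. No defining B cell gene was at 0 in all hearts, and the lowest per kilobase was Ms4a1, at 2.28 in control hearts.

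Of 15 macrophage genes, 9 had a lower and 6 a higher fitted value, with a median of -0.10. The only one with an unadjusted limma p under 0.05 was Cd163, a scavenger receptor, which was higher (log2 fold change 0.61, p 0.0178, adjusted p 0.9996). The 15 genes had a sum of 92233 to 107640 in control and 77078 to 114893 in miR-19a/19b hearts. Relative to these genes Siglec1 was at 0.04, 0.24 and 0.21 in control and -0.62, -0.48 and -0.38 in miR-19a/19b hearts, a difference of -0.66 without overlap. Siglece (-0.23) and Cd33 (-0.09) overlapped on this scale. Cd72 differed by -0.88 from this list without overlap, a comparison added after the data were seen. Relative to the plasmacytoid dendritic cell list, of which 7 of 10 genes had a lower fitted value, Siglech differed by -0.54 with overlap. That list is a poor measure of these cells here. Its sum, 16902 to 17183 in control and 13232 to 20404 in miR-19a/19b hearts, came mostly from Cox6a2, Bst2 and Tcf4, which other heart cells also use, and Ccr9, a narrower marker, was at 7.56 ± 4.97 and 4.29 ± 1.65 normalized counts.

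Monocyte genes differed more between the groups than the lists above. Of 6, 5 had a lower fitted value and 3 had an unadjusted limma p under 0.05. These were Ly6c2, which marks inflammatory monocytes (log2 fold change -1.77, p 8.15e-05, adjusted p 0.396), Plac8 (-0.92, p 0.000723, adjusted p 0.632) and Ccr2 (-0.53, p 0.0039, adjusted p 0.886). Chil3 (-0.35) and Vcan (-0.19) were closer to 0, and F13a1 was higher (0.16). The mean log2 level of the 6 genes differed by -0.60, without overlap. Ly6c2, the furthest from 0, weighs most in that mean, and a list without it was not tried. The sum of the 6 genes was 11135 to 12336 in control and 8649 to 10774 in miR-19a/19b hearts. Relative to them Cd72 was at -0.30, -0.66 and -0.36 in control and -0.67, -0.71 and -0.83 in miR-19a/19b hearts. This was a difference of -0.30, against -0.90 before scaling, and the groups were apart by only the gap between -0.66 and -0.67. Siglec1 was at 0.42, 0.57 and 0.95 in control and 0.53, 0.54 and 0.64 in miR-19a/19b hearts, a difference of -0.08 with overlap. The size of both differences, and for both genes whether the groups overlapped, depended on the list used (for Cd72, see the neutrophil genes below).

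Of 8 neutrophil genes, 7 had a lower fitted value and 1 an unadjusted limma p under 0.05, with a median of -0.35 and a sum of 2073 to 2769 in control and 1149 to 3625 in miR-19a/19b hearts. Relative to them Cd72 differed by -0.49 and Siglec1 by -0.26, both with overlap. The monocyte and neutrophil comparisons were added after the data were seen.

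Genes induced by interferon were also lower in the same hearts as Cd72 and Siglec1. Siglec1 is itself induced by type I interferon. All 24 genes of that list had a lower fitted value, 23 of them with an unadjusted limma p under 0.05 and 23 without overlap, with a median log2 fold change of -0.71. None passed the adjusted threshold in limma. Relative to this list Siglec1 was at 1.02, 0.92 and 1.35 in control and 1.22, 0.91 and 1.28 in miR-19a/19b hearts, a difference of 0.04 with overlap. This comparison was also added after the data were seen. The mean log2 level of the interferon list differed by -0.72 without overlap, where Cd72 differed by -0.90. Cd72 was not set relative to that list. Whether interferon had a part in the difference of Cd72 or Siglec1 was not tested.

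Other cells differed between hearts as well. The 8 cardiomyocyte genes had a summed normalized count of 499753 to 637903 in control and 303975 to 877591 in miR-19a/19b hearts, and their mean log2 level in the third miR-19a/19b heart was -0.88 from the control mean against 0.62 and 0.51 in the other two. This heart had the highest values of all 9 genes within its group. The 8 skeletal muscle genes summed to 278 to 424 in control hearts and to as much as 3382 in miR-19a/19b hearts, the highest being replicate 1. Of 8 T cell genes 7, and of 5 NK cell genes 5, had a lower fitted value, with medians of -0.51 and -0.73, and 2 and 3 of them had an unadjusted limma p under 0.05. The mean log2 level differed by -0.45 without overlap for the T cell list and by -0.79 with overlap for the NK cell list. Sema4d, a semaphorin of T cells and other leukocytes, was not set relative to the T cell list. The part of cell content in the results was not tested.

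Without miR-19a/19b replicate 3, 6 of the 9 genes had an unadjusted limma p under 0.05: Cd72, Siglec1, Sema4d, Siglech, Siglece and Ptpn6. In the same fit 14.5% of all genes tested had one, against 4.01% with all hearts. In that comparison of 3 hearts with 2, the limma adjusted p was 0.00874 for Cd72 and 0.00980 for Siglec1, with log2 fold changes of -0.95 and -0.81.

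The genes most like Cd72 and Siglec1 over the 6 hearts were sought among the 15506 other genes with a mean of at least 10. For Cd72 these were Apol9a (Pearson r 0.991), Utp20 (0.989), Gm12435 (0.986), Apol9b (0.982) and Rin1 (0.972), and 26 genes reached 0.95. Apol9a and Apol9b are near-identical copies whose reads may be split. For Siglec1 they were Dtx3l (0.993), Oas3 (0.992), Idi1 (0.991), Isg20l2 (0.988) and Slfn8 (0.987), and 56 genes reached 0.95. Cd72 and Siglec1 correlated at 0.87 with each other. The points are 6 hearts in 2 groups, so genes that differ between the groups share that difference in these values.

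The genes that make and attach sialic acid, the ligand of the Siglecs, were spread about 0. Of 19 tested, 9 had a lower and 10 a higher fitted value, with a median log2 fold change of 0.01, and 0 had an unadjusted limma p under 0.05. St3gal1, the most abundant, had 1758 ± 160 normalized counts in control and 1765 ± 53.7 in miR-19a/19b hearts, and St3gal2 1626 ± 134 and 1567 ± 115.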

How the data were processed

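Polyadenylated RNA of 6 ventricles was sequenced. In the submitters' processing notes, reads were aligned with STAR 2.5.1b, counted with HTSeq 0.6.0 and normalized with DESeq2 1.10.1. The deposited signal is a normalized count: the authors divided each gene's reads by a library size factor (0.905 to 1.16). Dividing by the value of 1 read gave whole reads for 100% of values, within 0.01 read. Per heart, 19398196 to 23645308 reads fell on genes, and 3.18% to 6.93% of them on mitochondrial genes. The notes name mm9, but 82.7% of the 25884 genes found in GENCODE M21 (GRCm38) had its start and end, so coordinates are on GRCm38. The deposited fold changes and p-values of the authors, and a second table holding such values, were not used.

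Groups were compared with limma 3.58.1 (R 4.3.3, trended prior), since the deposited values are normalized. A pseudocount of 1 was added before taking log2, and the 21126 genes whose mean reached 1 were tested. This understates fold changes of low genes. Alternatives were DESeq2 1.42.0 and edgeR 4.0.16 on recovered reads, limma-voom, other pseudocounts and filters, upper quartile scaling, a replicate block, and each heart left out. On simulated reads for 20748 genes with 200 changed 2-fold, limma recovered 74.5% with 15 false calls, DESeq2 81.5% with 34 and edgeR's exact test 83% with 39. Each gene was simulated on its own, without differences in cell content between hearts, so these rates need not hold here.

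The 9 genes, the lists and the tests were chosen with earlier results of these data known. Named beside the 9 genes were list genes with an unadjusted p under 0.05 or among the 2 most abundant of a pathway list, defining cell type markers, and the 5 genes most like Cd72 and Siglec1. Tesk1, Plxnb1, the monocyte genes and the overlapping genes were named after their values were seen. Samples are separate mice. An exact permutation test of 3 hearts against 3 cannot go below 0.1 and was not used.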

Additional observations from a re-analysis of the deposited data

How the results depend on the processing

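Cd72 and Siglec1 were lower in all 16 alternatives, with log2 fold changes from -0.96 to -0.79 and from -0.81 to -0.54. Limma called 0 genes at an adjusted p under 0.05 and 848 at an unadjusted p under 0.05, while DESeq2 called 29 genes and edgeR's exact test 30 after adjustment. Cd72 passed in both (log2 fold change -0.90 in each, adjusted p 4.23e-05 and 1.86e-05), and its adjusted p ran up to 0.845 with all 6 hearts in the other alternatives. Leaving out each heart in turn gave 0 to 547 genes after adjustment and 610 to 3067 before it, both highest without miR-19a/19b replicate 3, where 164 of the 547 genes were lower and 383 higher. The number of the 9 genes with an unadjusted p under 0.05 was 2 to 6 with a heart left out, 6 only without that replicate, and 2 with all hearts in each alternative. Cd72 lay between -0.96 and -0.79 and Siglec1 between -0.81 and -0.54 with a heart left out, and Siglec1 was called only without that replicate. The cause was not tested. With a heart left out, Cd33 ran from -0.24 to 0.043 and Ptpn6 from -0.38 to 0.037, both above 0 only without miR-19a/19b replicate 1. The median of the 9 genes stayed between -0.47 and -0.19.

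Replicate numbers gave no sign of pairing. Same-numbered hearts correlated at -0.01, -0.02 and -0.11 in their deviations from group means, and differently numbered hearts at -0.10 to 0.12. This check cannot exclude pairing, since the deviations of 3 hearts from their mean are tied to each other. With the replicate block, 641 genes had an unadjusted p under 0.05 and 0 an adjusted one, and Cd72 had a log2 fold change of -0.90 with an unadjusted p of 0.00078. Siglech gave no value with at least 10 in every heart. Depth limits Siglech, Siglecg and Cd22 most, and 3 hearts per group limit all of the genes.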
